A study of Mus musculus with 9 samples.

Results

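The transcripts described here encode the signalling part of the T-cell receptor (TCR), its CD8 co-receptor and the first enzymes that act on it. The members were chosen by gene symbol and were the CD3 chains (Cd3e, Cd3d, Cd3g and Cd247), the CD8 chains (Cd8a and Cd8b1), the kinases Lck, Fyn and Zap70, and the phosphatase CD45 (Ptprc), which made 10 of 24060 genes in the table. CD8 T cells came from 3 transnuclear mouse lines, Rop7-I, Rop7-II and Rop7-III, each made by transfer of the nucleus of 1 CD8 T cell, so that each line carries the rearranged TCR genes of 1 cell and stands for 1 clone. The study describes the cells of all 3 lines as homozygous for these genes, which can rearrange again, so that a line can hold other receptors too. The receptors of the 3 donor cells recognize an epitope of the Toxoplasma gondii protein Rop7 on H-2Ld, and the lines were backcrossed to BALB/c. Spleen cells of each line were kept overnight at 37°C as mixed suspensions with 10 ng/ml IL-2 and no antigen. Cells that were CD3+, CD8+ and H-2Ld-Rop7+ were then sorted from them to a purity of 90 to 95%. RNA-seq libraries were made from 200 ng of RNA for 3 biological replicates per clone, 9 samples in all. Values are TPM, RSEM's transcript abundance, which are divided by gene length and scaled to the same total in each sample and keep no read counts. The study gives only a typical number of reads, so the depth of each sample is unknown.

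The TCR α and β chains bind peptide and MHC but have no signalling motifs of their own. They are carried to the surface with the CD3 γ, δ, ε and ζ chains, whose cytoplasmic tails hold the tyrosine motifs (ITAMs) that Lck and Fyn phosphorylate, and Zap70 binds the phosphorylated motifs. CD8 binds MHC class I and brings Lck to the receptor, while CD45 removes the inhibitory phosphate of Lck that the kinase Csk adds, so that together they set how easily the receptor fires.

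One library stood apart in B-cell and myeloid markers before any comparison was made, and another, Rop7-I replicate 2, in erythroid markers. Markers of B cells summed to 805 TPM in Rop7-II replicate 1, against 76.9 and 80.6 TPM in Rop7-II replicates 2 and 3, 140, 356 and 260 TPM in Rop7-I replicates 1 to 3, and 59.5, 118 and 76.8 TPM in Rop7-III replicates 1 to 3. All 9 B-cell markers in the table were highest in Rop7-II replicate 1, and the most abundant, Cd79b, stood at 245 TPM there. All 8 myeloid markers in the table were also highest in that sample. They summed to 773 TPM in it, and to 157 and 311 TPM in the other Rop7-II samples, 153, 190 and 234 TPM in Rop7-I and 147, 142 and 163 TPM in Rop7-III. Cst3 was the myeloid marker with the highest mean, and Lyz2 reached 485 TPM in Rop7-II replicate 1 against 19.8 to 161 TPM elsewhere. Cd4, the co-receptor of helper T cells, stood at 6.75 TPM in Rop7-II replicate 1 and at 0.12 to 0.94 TPM in the other samples, while the 5 CD4 T-cell markers, led by Ctla4, summed to 23.5 to 47.6 TPM. Erythroid markers, led by Hbb-b1, summed to 295, 1544 and 381 TPM in Rop7-I replicates 1 to 3, to 190, 26.2 and 28.1 TPM in Rop7-II and to 389, 204 and 45.5 TPM in Rop7-III. Hbb-bs was listed at 0 in all 9 samples. NK-cell markers summed to 2.5 to 18.3 TPM and were mostly Eomes, which activated CD8 T cells also use, except in Rop7-II replicate 1. There the sum was 3 TPM, with Eomes at 1.49 TPM and Ncr1 at 1.19 TPM. Klra8 and Klra4 were listed at 0 in 8 of 9 samples. By contrast, the 7 CD8 T-cell markers summed to 6572 to 7286 TPM, with Cd8b1 the most abundant, which matched the label of the samples.

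**Figure D1:**
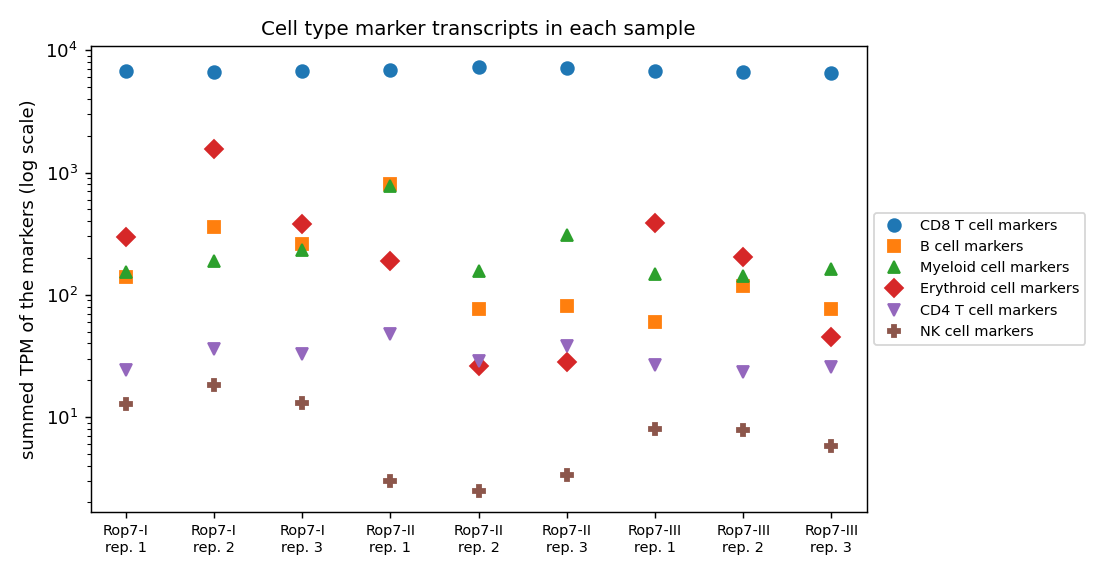
Summed TPM of cell type markers (y axis, log scale) in each of the 9 samples (x axis). Each point is the sum over 1 marker list in 1 sample. CD8 T-cell markers sit between 6572 and 7286 TPM in all samples, and B-cell and myeloid markers reach 805 and 773 TPM in Rop7-II replicate 1.

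The receptor machinery differed little between the clones, and the clearest difference was in Cd8a. Its mean was highest in Rop7-II, intermediate in Rop7-I and lowest in Rop7-III, with a 1.31-fold range between the highest and lowest clone mean. Lck was highest in Rop7-II and lowest in Rop7-I, Fyn was highest in Rop7-III and lowest in Rop7-I, and the highest and lowest clone means of each of the 4 CD3 chains were 1.03-fold to 1.09-fold apart. Genes were called at a limma adjusted p under 0.01 over the 12115 genes with a TPM over 1 in at least 1 sample, and all 10 members were among these. Cd8a was the 1 member called in Rop7-III against Rop7-II, where 12.3% of all tested genes were called. Fyn was the 1 member called in Rop7-III against Rop7-I, where 4.85% of genes were called, and Cd8a and Lck were the 2 called in Rop7-I against Rop7-II, where 7.53% were called. In limma's F test across the 3 clones, Cd8a and Fyn were called, against 14.1% of all tested genes. The shares of 1 in 10, and that of 2 in 10 in the F test, were near the background. In Rop7-I against Rop7-II the share of 2 in 10 was above the 7.53% of all tested genes, a difference that was not tested. No member was called with a 2-fold difference, against 1.7%, 1.06% and 0.949% of all genes in the 3 comparisons in the order given. At a limma adjusted p under 0.05 there were 2, 2 and 6 members in these comparisons and 5 in the F test, against 25.1%, 13.1%, 17.9% and 30% of all tested genes. At an unadjusted limma p under 0.05 the counts were 4, 5 and 7 of the 10 members, against 37.8%, 28.0% and 32.1% of all tested genes. The comparisons share samples and are not independent of each other.

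**Figure D2:**
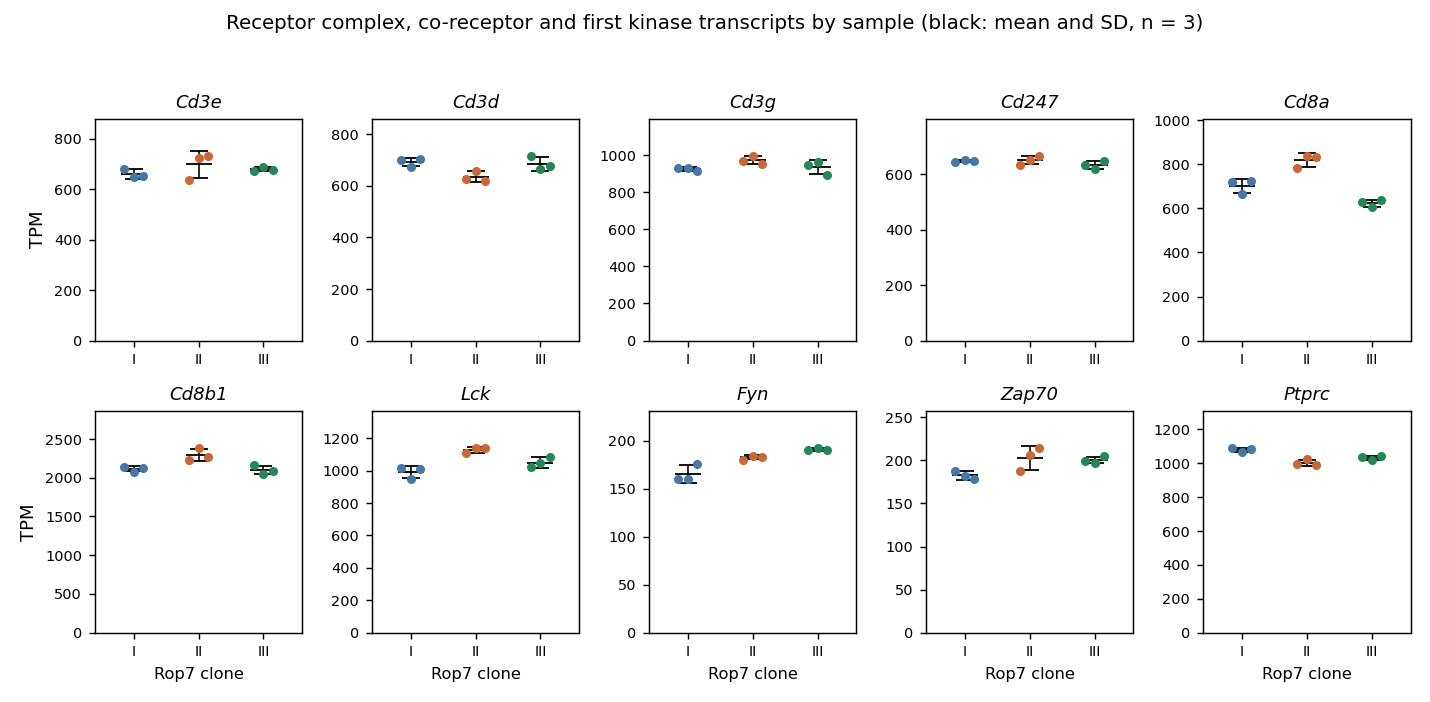
TPM (y axis, from 0) of the 10 members in each of 9 samples, by clone (x axis). Coloured points are samples, and black bars are the clone mean and SD (n = 3). Cd8a falls into 3 separate ranges, between 606 and 637 TPM in Rop7-III, 665 and 722 TPM in Rop7-I, and 785 and 839 TPM in Rop7-II.

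The absolute log2 difference had a median of 0.06 among the members and 0.13 among all tested genes in Rop7-III against Rop7-II. The corresponding medians were 0.05 and 0.10 in Rop7-III against Rop7-I, and 0.12 and 0.12 in Rop7-I against Rop7-II. The spread in the fit was small for these abundant transcripts. It is given as limma's moderated SD, which is drawn toward the trend on mean expression and shared by the 3 clones. On the log2(TPM + 1) scale this SD ranged from 0.03 for Ptprc to 0.06 for Cd3e. Its median over all tested genes was 0.09. Spread could differ between clones, as for Cd3e, with an SD of 52.1 TPM for Rop7-II but 19.1 for Rop7-I and 7.98 for Rop7-III. Replicates of both clones occupied separate ranges for 5 of 10 members in Rop7-III against Rop7-II, 5 of 10 in Rop7-III against Rop7-I and 7 of 10 in Rop7-I against Rop7-II. Among all tested genes the shares with separate ranges were 40.7%, 38.2% and 35%. In bulk samples such as these, fewer cells of a type and less RNA per cell cannot be told apart.

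**Figure D3:**
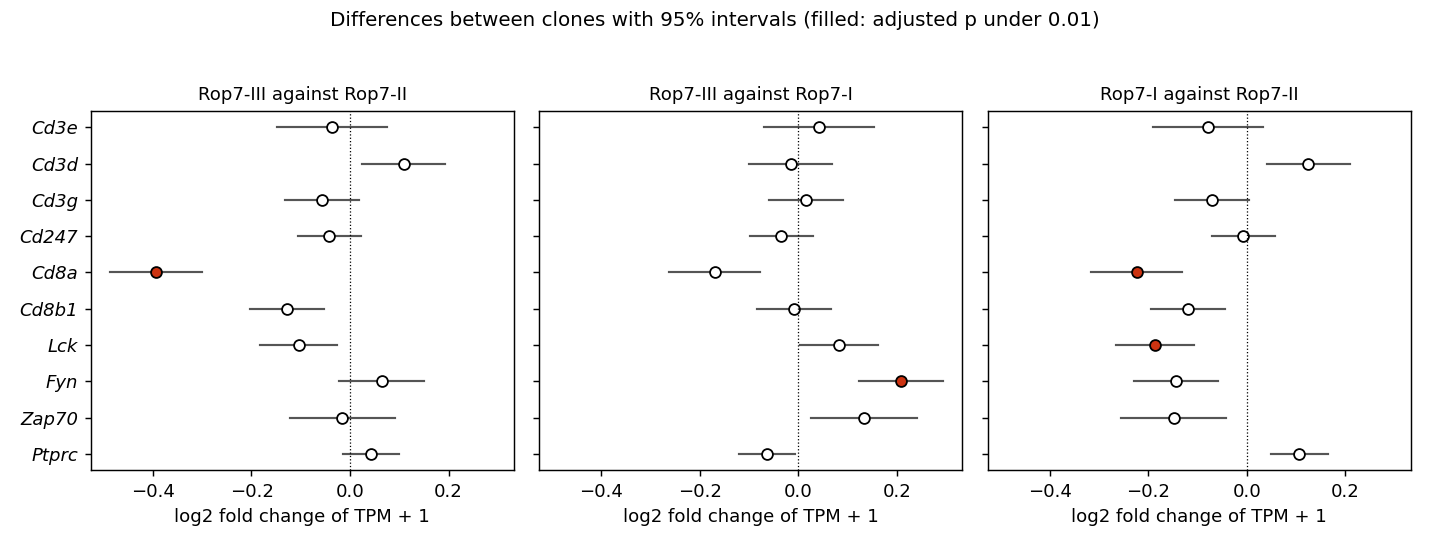
Log2 fold change of TPM + 1 (x axis) of each member (y axis) in the 3 comparisons, with 95% intervals from limma. Filled points have an adjusted p under 0.01. Cd8a is called with a log2 difference of -0.39 in Rop7-III against Rop7-II and -0.22 in Rop7-I against Rop7-II, Fyn with 0.21 in Rop7-III against Rop7-I, and Lck with -0.19 in Rop7-I against Rop7-II.

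Among the CD3 chains, Cd247, which encodes the ζ chain with several ITAMs, was the most even. Its levels were 643, 652 and 646 TPM in Rop7-I replicates 1 to 3, 634, 652 and 666 for Rop7-II and 631, 618 and 647 for Rop7-III. All 3 clones overlapped. Cd3e, whose product pairs with both the γ and the δ chain, stood at 681, 647 and 650 TPM in Rop7-I, 637, 723 and 732 in Rop7-II and 672, 688 and 676 in Rop7-III. Here Rop7-II replicate 1 was the lowest of the 9 samples and the other Rop7-II samples were the highest. Cd3g ranged from 894 to 997 TPM, and its Rop7-II samples (951 to 997 TPM) lay above those of Rop7-I (914 to 932 TPM). Cd3d, the δ chain, was at 699, 675 and 705 TPM in Rop7-I, 628, 659 and 620 in Rop7-II and 717, 664 and 677 in Rop7-III. All Rop7-II samples lay below all others for Cd3d, but its differences were not called. Its log2 difference was 0.12 in Rop7-I against Rop7-II (95% interval 0.04 to 0.21, limma adjusted p = 0.0477) and 0.11 in Rop7-III against Rop7-II (0.03 to 0.19, limma adjusted p = 0.0601). Over the 4 chains and 3 comparisons, the 95% intervals of the log2 differences ran from -0.19 to 0.21. The summed TPM of the CD3 chains was 2925 ± 25.2 in Rop7-I, 2956 ± 81.4 in Rop7-II and 2932 ± 36.1 in Rop7-III (mean ± SD, n = 3).

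Cd3g, Cd3d and Cd3e are neighbours in GRCm38, at chr9:44969572-44980431 (minus strand), chr9:44981786-44987339 (plus strand) and chr9:44998740-45009627 (minus strand). Cd3g and Cd3d start 1355 bp apart and are read away from each other. Although they share this stretch, the ratio of Cd3d to Cd3g was lower in every Rop7-II sample than in any other sample. It was 0.752, 0.724 and 0.772 in Rop7-I replicates 1 to 3, 0.648, 0.661 and 0.652 in Rop7-II and 0.757, 0.689 and 0.757 in Rop7-III. An exact permutation of the clone labels over the 280 arrangements of the 9 samples gave p = 0.025, or 0.0313 after Benjamini-Hochberg adjustment over the 5 ratios examined. With 8 samples the adjusted p of this ratio was 0.0357 without Rop7-I replicate 2, and leaving out Rop7-III replicate 2 gave 0.0476. It was over the limit of 0.05 without any other sample, at 0.0595 to 0.0893. The ratio of Cd247 to Cd3e ranged from 0.898 to 1.01 and overlapped between all clones (exact permutation p = 0.343). The nearest tested genes on either side of the CD3 cluster were Ube4a, a ubiquitin ligase with a mean of 109 TPM, and Mpzl3, with a mean of 4.78 TPM. Neither was called in the F test (limma adjusted p = 0.384 and 0.850).

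Promoters are shown for the called members Cd8a, Lck and Fyn and for the neighbours Cd3d and Cd3g, as the 250 bases before each RefSeq start (GRCm38.p6, 5′ to 3′ on the gene's strand). Of the 10 members, all but Cd8b1 matched an entry of the promoter table. Capitals mark GGAAG or its complement CTTCC, the core that ETS factors bind, and TGTGG or its complement CCACA, part of the RUNX core. Both families are well known in T-cell genes. The letters of a pair can overlap at GG. GGAAG or CTTCC was found in 64.1% and TGTGG or CCACA in 49.3% of the 32851 promoters of this length, so a match is common and is only a description.
Cd3d, chr9:44981536-44981785, plus strand: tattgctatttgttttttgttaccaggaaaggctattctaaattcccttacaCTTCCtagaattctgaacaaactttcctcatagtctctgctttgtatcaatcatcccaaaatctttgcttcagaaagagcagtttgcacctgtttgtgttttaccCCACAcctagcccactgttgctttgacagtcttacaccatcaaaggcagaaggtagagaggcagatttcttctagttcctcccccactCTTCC
Cd3g, chr9:44980432-44980681, minus strand: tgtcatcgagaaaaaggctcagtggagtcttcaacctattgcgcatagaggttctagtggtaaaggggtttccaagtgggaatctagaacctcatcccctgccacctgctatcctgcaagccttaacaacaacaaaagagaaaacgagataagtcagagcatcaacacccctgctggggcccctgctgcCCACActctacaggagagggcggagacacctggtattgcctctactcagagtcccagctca
Cd8a, chr6:71373177-71373426, plus strand: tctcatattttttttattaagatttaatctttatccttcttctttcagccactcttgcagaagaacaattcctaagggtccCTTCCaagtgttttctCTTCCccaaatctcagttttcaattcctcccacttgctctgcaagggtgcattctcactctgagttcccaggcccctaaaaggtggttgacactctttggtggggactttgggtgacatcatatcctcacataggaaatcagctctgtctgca
Lck distal start, chr4:129573642-129573891, minus strand: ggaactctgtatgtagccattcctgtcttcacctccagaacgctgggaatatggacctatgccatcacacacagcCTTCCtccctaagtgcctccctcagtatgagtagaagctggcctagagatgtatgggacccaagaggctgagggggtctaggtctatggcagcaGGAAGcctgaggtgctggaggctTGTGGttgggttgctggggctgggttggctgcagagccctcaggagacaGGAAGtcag
Lck proximal start, chr4:129558373-129558622, minus strand: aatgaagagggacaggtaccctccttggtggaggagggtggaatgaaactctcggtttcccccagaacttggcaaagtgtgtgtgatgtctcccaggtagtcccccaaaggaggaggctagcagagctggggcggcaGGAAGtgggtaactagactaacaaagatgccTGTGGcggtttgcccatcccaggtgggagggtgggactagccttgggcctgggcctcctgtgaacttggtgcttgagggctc
Fyn, chr10:39369549-39369798, plus strand: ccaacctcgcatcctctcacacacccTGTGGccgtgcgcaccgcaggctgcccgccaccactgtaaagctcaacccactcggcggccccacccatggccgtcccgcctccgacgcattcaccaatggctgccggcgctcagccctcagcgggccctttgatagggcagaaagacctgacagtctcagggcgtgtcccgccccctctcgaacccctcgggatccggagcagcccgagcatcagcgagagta
Both cores were present before the Cd3d start and before both Lck starts. Cd8a had only the ETS letters, at 2 places, and Cd3g and Fyn had only the RUNX letters, at 1 place each. The distal start of Lck is known to serve mature T cells and the proximal start thymocytes, and the TPM of a gene sums over both.

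The CD8 co-receptor is mostly a pair of CD8α and CD8β. Cd8a encodes the α chain, whose tail binds Lck. Its levels were 719, 665 and 722 TPM in Rop7-I replicates 1 to 3, 785, 839 and 835 for Rop7-II and 627, 606 and 637 for Rop7-III. The 3 clones did not overlap, and all Rop7-III samples were the lowest. The log2 difference in Rop7-III against Rop7-II was -0.39 (95% interval -0.49 to -0.30, limma adjusted p = 0.000205), a fold of 0.761. Without Rop7-II replicate 1, the sample rich in B-cell and myeloid markers, the log2 difference was -0.42. In Rop7-I against Rop7-II it was -0.22 (-0.32 to -0.13, limma adjusted p = 0.0064). In Rop7-III against Rop7-I it was -0.17 (-0.26 to -0.08, limma adjusted p = 0.0277), which was not called. The call in Rop7-III against Rop7-II held when any 1 of the 9 samples was left out. The call in Rop7-I against Rop7-II held without Rop7-II replicate 1 (limma adjusted p = 0.00403) and was lost without any other sample. The limma adjusted p was then 0.0149, 0.0228 and 0.0131 without Rop7-I replicates 1 to 3, 0.0204 and 0.0218 without Rop7-II replicates 2 and 3, and 0.0133, 0.0114 and 0.0108 without Rop7-III replicates 1 to 3, with log2 differences of -0.25 to -0.18 over all 9 runs.

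Cd8b1, the β chain, was the most abundant member, at rank 61 of all genes by mean TPM. It stood at 2136, 2077 and 2128 TPM in Rop7-I, 2235, 2386 and 2272 in Rop7-II and 2158, 2052 and 2093 in Rop7-III. The Rop7-II samples were the 3 highest, and Rop7-I and Rop7-III overlapped. Its log2 difference was -0.13 in Rop7-III against Rop7-II (limma adjusted p = 0.0211) and -0.01 in Rop7-III against Rop7-I (95% interval -0.08 to 0.07, limma adjusted p = 0.898), and neither was called. The α and β transcripts therefore did not keep a fixed ratio. The ratio of Cd8a to Cd8b1 was 0.337, 0.320 and 0.339 in Rop7-I replicates 1 to 3, 0.351, 0.352 and 0.368 in Rop7-II and 0.291, 0.296 and 0.304 in Rop7-III. The clones did not overlap. The exact permutation p was 0.00357, the smallest that 280 arrangements can give (adjusted p = 0.00893). This ratio is taken within each sample and does not depend on how samples are scaled to each other.

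Cd8b1 (chr6:71322788-71337494) and Cd8a (chr6:71373427-71379173) lie on the plus strand with a gap of 35933 bp. The nearest tested gene beyond Cd8a, Rmnd5a, stood at 129 ± 1.49 TPM in Rop7-I, 130 ± 3.74 in Rop7-II and 127 ± 3.64 in Rop7-III (mean ± SD, n = 3) and was not called in the F test (limma adjusted p = 0.662). Smyd1, a muscle gene before Cd8b1, was at 0.68 ± 0.108, 0.81 ± 0.217 and 0.283 ± 0.0208 TPM in the same order, with all Rop7-III samples lowest, and was not called in the F test (limma adjusted p = 0.0911). These values are near the floor, and Smyd1 passed the filter only through Rop7-II replicate 1, at 1.04 TPM. Sorting required CD3 and CD8 protein at the surface, so the presence of these transcripts was set by the gate.

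**Figure D4:**
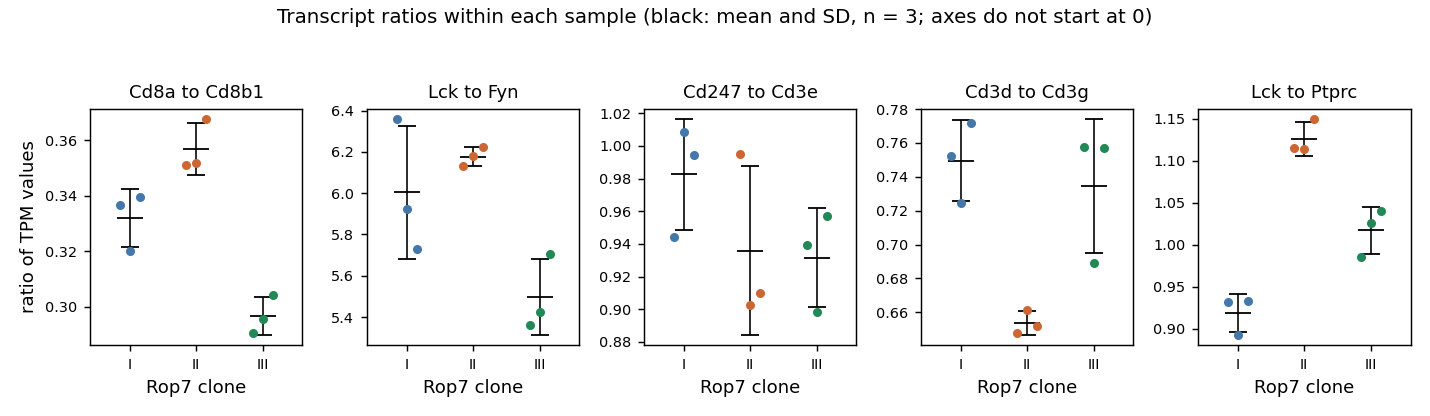
Ratio of TPM values between pairs of members (y axis, not from 0) in each sample, by clone (x axis). Coloured points are samples, and black bars are the clone mean and SD (n = 3). The ratios of Cd8a to Cd8b1 and of Lck to Ptprc fall into 3 separate ranges, and that of Cd247 to Cd3e overlaps between clones.

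Lck, the kinase bound to the co-receptor, was at 1016, 951 and 1008 TPM in Rop7-I replicates 1 to 3, 1107, 1140 and 1138 for Rop7-II and 1020, 1045 and 1084 for Rop7-III. The clones did not overlap, with Rop7-I lowest and Rop7-II highest. Its log2 difference in Rop7-I against Rop7-II was -0.19 (95% interval -0.27 to -0.11, limma adjusted p = 0.00685). The difference was -0.10 in Rop7-III against Rop7-II (limma adjusted p = 0.0563) and 0.08 in Rop7-III against Rop7-I (limma adjusted p = 0.159), and in the F test Lck was just over the limit (limma adjusted p = 0.0101). The call in Rop7-I against Rop7-II held without Rop7-II replicate 1 (limma adjusted p = 0.00873) or Rop7-III replicate 3 (0.00800). It was lost, with a limma adjusted p of 0.0140, 0.0271 and 0.0174 without Rop7-I replicates 1 to 3, 0.0208 and 0.0220 without Rop7-II replicates 2 and 3, and 0.0106 and 0.0146 without Rop7-III replicates 1 and 2. The log2 difference in these runs ranged from -0.20 to -0.16.

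Fyn, the other Src family kinase of T cells, was much less abundant per length than Lck. It was at 160, 161 and 176 TPM in Rop7-I, 181, 185 and 183 in Rop7-II and 190, 193 and 190 in Rop7-III. The order of the clones was thus not that of Lck, since Fyn was highest in Rop7-III, and the samples of the 3 clones did not overlap. Its log2 difference in Rop7-III against Rop7-I was 0.21 (95% interval 0.12 to 0.29, limma adjusted p = 0.00822). In Rop7-I against Rop7-II it was -0.14 (limma adjusted p = 0.0303) and in Rop7-III against Rop7-II 0.06 (limma adjusted p = 0.25), neither called. Without Rop7-I replicate 3 the difference in Rop7-I against Rop7-II was -0.19 and was called (limma adjusted p = 0.00548). The call in Rop7-III against Rop7-I held without Rop7-I replicate 3 (limma adjusted p = 0.00166) or Rop7-II replicate 1 (0.00798). It was lost, with a limma adjusted p of 0.0365 and 0.0354 without Rop7-I replicates 1 and 2, 0.0114 and 0.0123 without Rop7-II replicates 2 and 3, and 0.0297, 0.0363 and 0.0293 without Rop7-III replicates 1 to 3. The log2 difference stayed between 0.18 and 0.25. The ratio of Lck to Fyn was 6.36, 5.92 and 5.73 in Rop7-I replicates 1 to 3, 6.13, 6.18 and 6.22 in Rop7-II and 5.36, 5.43 and 5.71 in Rop7-III. All Rop7-III samples lay below all others, with an exact permutation p of 0.025 (adjusted p = 0.0313). With 8 samples the adjusted p stayed under 0.05 only without Rop7-I replicate 1, and was 0.0625 to 0.0893 in the other 8 runs.

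Zap70, which binds phosphorylated ITAMs and passes the signal to the adaptor LAT, was at 188, 182 and 178 TPM in Rop7-I, 187, 206 and 215 in Rop7-II and 199, 198 and 205 in Rop7-III. Rop7-I lay below Rop7-III in every sample and overlapped with Rop7-II through Rop7-II replicate 1. No comparison of Zap70 was called, and the largest log2 difference was -0.15 in Rop7-I against Rop7-II (95% interval -0.26 to -0.04, limma adjusted p = 0.0598). Without Rop7-II replicate 1 this difference was -0.20 and was called (limma adjusted p = 0.00575). The range over all alternatives was 0.00575 to 0.163. The summed TPM of the 3 kinases was 1340 ± 40.2 in Rop7-I, 1514 ± 33.9 in Rop7-II and 1441 ± 35.3 in Rop7-III (mean ± SD, n = 3).

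Ptprc, which encodes CD45, went the other way from Lck. Its levels were 1090, 1065 and 1081 TPM in Rop7-I, 992, 1024 and 990 in Rop7-II and 1035, 1019 and 1043 in Rop7-III. The Rop7-I samples were the 3 highest, and the others overlapped. Its log2 difference was 0.11 in Rop7-I against Rop7-II (95% interval 0.05 to 0.16, limma adjusted p = 0.0203), which was not called. The ratio of Lck to Ptprc, a kinase against the phosphatase that acts on it, was 0.932, 0.893 and 0.932 in Rop7-I replicates 1 to 3, 1.12, 1.11 and 1.15 in Rop7-II and 0.986, 1.03 and 1.04 in Rop7-III. The clones did not overlap, and the exact permutation p was 0.00357 (adjusted p = 0.00893). All leukocytes carry Ptprc, and the part of the B-cell and myeloid cells of Rop7-II replicate 1 in its level was not tested. In that sample Ptprc and the ratio of Lck to Ptprc lay within the range of the other Rop7-II samples. Splice forms of Ptprc, which mark naive and activated T cells, are summed in the TPM of the gene.

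Among genes that regulate Lck and the receptor, several differed by more than any of the members. Of 20 such genes, all tested, 7 were called in limma's F test, against 14.1% of all tested genes. In Rop7-III against Rop7-II, 6 were called higher and 2 lower, where 6.39% of all tested genes were called in the higher direction and 5.89% in the lower. In Rop7-III against Rop7-I, 4 were called higher and 0 lower, against 2.58% and 2.28% of all genes, and in Rop7-I against Rop7-II, 5 higher and 0 lower, against 3.67% and 3.85%. The median log2 difference of the list was 0.01, -0.01 and 0.07 in these comparisons, and that of all tested genes was -0.02, -0.00351 and -0.01. Ubash3b, whose phosphatase product acts on Zap70 and related kinases, was at 12.0 ± 0.644 TPM in Rop7-I, 5.78 ± 1.69 in Rop7-II and 30.7 ± 1.7 in Rop7-III (mean ± SD, n = 3). Cd5, an inhibitory receptor whose level is known to follow the strength of self-recognition, was at 67.6 ± 7.93, 41.4 ± 10.2 and 178 ± 3.2 TPM in the same order. Its log2 difference in Rop7-III against Rop7-II was 2.1 (limma adjusted p = 2.19e-05), while in Rop7-I against Rop7-II it was 0.71 (limma adjusted p = 0.01002), just over the limit. Sla, an adaptor that lowers receptor levels, was at 54.2 ± 1.16, 39.4 ± 1.41 and 66.6 ± 4.19 TPM. These 3 genes, chosen by their F test p, shared an order of clone means, Rop7-III above Rop7-I above Rop7-II, which is the reverse of that of Cd8a. Others of the list were named after their values were seen. Cd6, Sh2d2a and Cblb had that reverse order too, while Csk, Sit1, Ptpn6, Cbl, Ubash3a and Ptprj had the order of Cd8a. The share of all tested genes with either order was not counted. The genes called lower in Rop7-III against Rop7-II were Csk and Sit1, named after their values were seen, with log2 differences of -0.15 and -0.43 (limma adjusted p = 0.00741 and 0.00837).

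Of 11 genes for receptor assembly and other co-receptors, 9 were tested and 4 were called in the F test, against the same 14.1%, and Rag1 and Rag2 did not pass the filter. In Rop7-III against Rop7-II, 4 were called higher and 1 lower, beside 6.39% and 5.89% of all genes, and in Rop7-I against Rop7-II, 3 higher and 0 lower, beside 3.67% and 3.85%. None was called by limma in Rop7-III against Rop7-I, where 4.85% of all genes were, and 5 had an unadjusted p under 0.05, beside 28.0% of all genes. The list's median log2 difference was 0.31 in Rop7-III against Rop7-II, 0.14 in Rop7-III against Rop7-I and 0.11 in Rop7-I against Rop7-II. Cd2, an adhesion and co-stimulatory receptor, was at 329 ± 12.1 TPM in Rop7-I, 251 ± 8.12 in Rop7-II and 366 ± 2.06 in Rop7-III (mean ± SD, n = 3). Cd28, the main co-stimulatory receptor, was at 133 ± 5.51, 97.9 ± 4.43 and 156 ± 4.44 TPM, although the study saw no difference in CD28 protein between the naive clones. Tespa1, needed for receptor signalling in thymocytes, was at 21.5 ± 0.453, 15.8 ± 1.18 and 23.7 ± 2.08 TPM. The gene called lower was Thy1, named after its values were seen, at 1327 ± 5.82, 1433 ± 38.7 and 1277 ± 50.9 TPM.

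**Figure D5:**
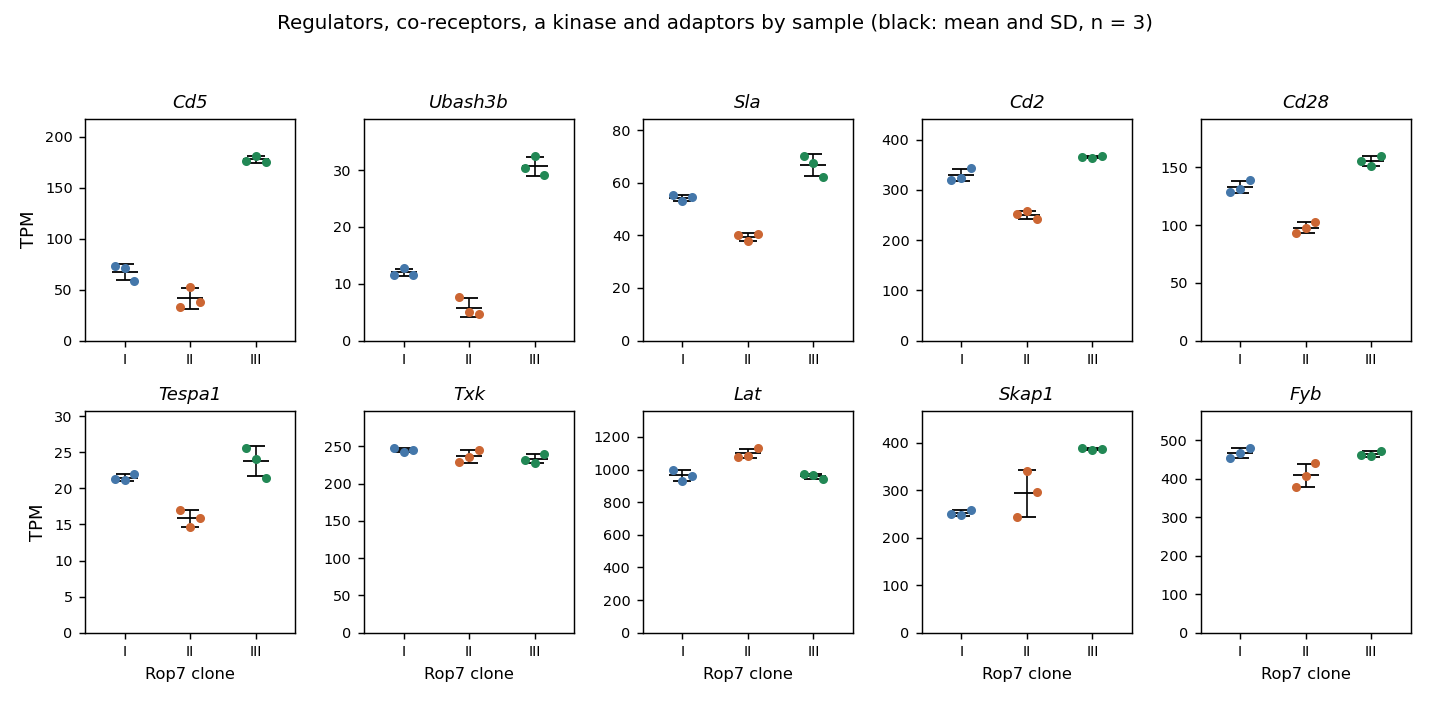
TPM (y axis, from 0) of 10 other genes of the pathway in each sample, by clone (x axis). Coloured points are samples, and black bars are the clone mean and SD (n = 3). Cd5 has means of 67.6, 41.4 and 178 TPM in Rop7-I, Rop7-II and Rop7-III, and Lat is highest in Rop7-II.

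Of other kinases of the Src and related families, Txk, a T-cell kinase, had means of 245, 236 and 233 TPM in Rop7-I, Rop7-II and Rop7-III (n = 3). Fgr, a myeloid kinase, was at 1.51 ± 0.416, 2.63 ± 3.14 and 0.347 ± 0.0451 TPM (mean ± SD), with the wide spread in Rop7-II that the myeloid markers show. Neither was called in the F test (limma adjusted p = 0.233 and 0.222). Of 10 substrates and adaptors after Zap70, 2 were called in the F test, near the 14.1% of all tested genes. At an unadjusted limma p under 0.05 there were 7 in Rop7-III against Rop7-II, beside 37.8% of all tested genes. There were 3 in Rop7-III against Rop7-I and 3 in Rop7-I against Rop7-II, beside 28.0% and 32.1%. Lat, the membrane adaptor, was at 964 ± 33.3, 1099 ± 29.7 and 959 ± 15.5 TPM in Rop7-I, Rop7-II and Rop7-III. It was lower in Rop7-III against Rop7-II (log2 difference -0.20, limma adjusted p = 0.00294) and in Rop7-I against Rop7-II (-0.19, limma adjusted p = 0.00514). Skap1, an adaptor in integrin activation, was at 252 ± 5.91, 294 ± 49.4 and 387 ± 2.48 TPM and was called higher in Rop7-III against Rop7-I (log2 difference 0.62, limma adjusted p = 0.004). Its partner Fyb was at 467 ± 13.4, 409 ± 30.3 and 464 ± 7.39 TPM and was not called.

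Another 4 genes encode ITAM adaptors of other lineages. Cd79a, of the B-cell receptor, was at 38.6, 94.1 and 64.9 TPM in Rop7-I replicates 1 to 3, 221, 18.4 and 21.9 for Rop7-II and 15.1, 30.2 and 16.2 for Rop7-III. Tyrobp and Fcer1g, of NK and myeloid cells, reached 42.8 and 32.4 TPM in Rop7-II replicate 1 and were at 2.13 to 15.7 and 1.89 to 9.22 TPM elsewhere. None of the 4 genes was called by limma in any comparison, and at an unadjusted p under 0.05 there were 2 in Rop7-III against Rop7-II and 0 in each of the others, beside 37.8%, 28.0% and 32.1% of all tested genes.

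The genes whose pattern over the 9 samples was nearest to that of a member were sought among those called in the F test, by the root mean square difference of log2(TPM + 1) after centring each gene at its mean. For Cd8a they were Cic (0.04), Kdm6b (0.04) and Ddx1 (0.04), against a root mean square of 0.17 for Cd8a about its own mean. For Lck they were Fkbp8, Map4k2 and Ctbp1, each at 0.03 against 0.08 for Lck about its own mean, and for Fyn Ogt, Ttc14 and Wdr3, also at 0.03 each, against 0.09 for Fyn. Kdm6b, a histone demethylase, was at 97.2 ± 0.691 TPM in Rop7-I, 116 ± 6.12 in Rop7-II and 85.9 ± 2.99 in Rop7-III (mean ± SD, n = 3). Map4k2, a kinase, was at 682 ± 11.5, 776 ± 12.7 and 733 ± 21.6 TPM in the same order. None of these 9 genes was a member.

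The libraries did not keep strand, so reads from overlapping genes on opposite strands cannot be told apart. Pou2f1, a transcription factor gene on the strand opposite Cd247, stood at 37.2 to 47.5 TPM and was not called in the F test (limma adjusted p = 0.289). Mir8119, within Lck on the same strand, was listed at 0 in 6 of 9 samples and at 1.44 to 1.91 TPM in the others. Other annotated genes that overlap a member were not among the tested genes, such as Gm48719 at Cd3e and Gm16364 at Fyn.

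Markers of cell state were read beside the members. The 5 genes of activated T cells, led by Egr1, summed to 21.8, 30.3 and 21.2 TPM in Rop7-I replicates 1 to 3, 36.3, 13.1 and 15.7 for Rop7-II and 24.8, 27.9 and 21.0 for Rop7-III. Egr1 itself was at 4.24 to 12.3 TPM. The 6 genes of memory-like CD8 T cells, led by Il2rb, summed to 108, 114 and 112 TPM in Rop7-I, 102, 95.9 and 90.6 in Rop7-II and 139, 152 and 140 in Rop7-III. The Rop7-III samples were the 3 highest, and Ccl5, a chemokine of antigen-experienced cells, was at 26.4 to 30.4 TPM there and at 2.42 to 9.03 TPM elsewhere. Cxcr3, at 2.59 to 6.74 TPM in Rop7-III and 0.08 to 1.13 TPM elsewhere, was also higher in every Rop7-III sample than in any other. Cd44, at 9.52 to 11.1 and 1.85 to 9.51 TPM, was barely so, and its 9.51 TPM was in Rop7-II replicate 1. Among all tested genes, replicates had separate ranges for 40.7% in Rop7-III against Rop7-II and 38.2% in Rop7-III against Rop7-I. Il2rb overlapped between Rop7-II and Rop7-III. Eomes was at 12.4 to 17.5 TPM in Rop7-I and 1.49 to 7.62 TPM elsewhere, and Ly6c2 was highest in Rop7-II replicate 1, at 6.26 TPM. The part of such cells in the differences of Cd8a and Fyn was not tested. Markers of γδ T cells, led by Blk, summed to 3.91 to 45.1 TPM and were not tested as a list. Blk is also a B-cell marker and made up 44.6 TPM of the highest sum, in Rop7-II replicate 1, while Cd163l1 was at 4.42 to 4.64 TPM in Rop7-III and 0.1 to 0.69 TPM elsewhere. Xist was at 141 to 167 TPM in all samples, and Ddx3y, Eif2s3y and Kdm5d were listed at 0.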

How the data were processed

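RNA-seq of sorted CD8 T cells from 3 Rop7 clones was analysed, with 3 biological replicates per clone grouped by their labels. The authors aligned single-end reads and estimated expression with RSEM 1.2.11 on RefSeq genes of mm10 and deposited TPM values per gene and sample. The submitters' processing notes also name DESeq2 1.8.1, a count test that does not apply to TPM. The files give no reads per sample, so the depth of each is unknown, and intervals for counting error were left out. Here log2(TPM + 1) of the 12115 genes with a maximum TPM over 1 was fitted with limma 3.58.1 in R 4.3.3 to all 9 samples, with a trend on mean expression and without pairing. Benjamini-Hochberg adjustment ran over all tested genes of a comparison, with a limit of 0.01. Differences are on that log2 scale, which understates those of low genes. Ratios of TPM were tested by exact permutation, adjusted over 5 ratios at a limit of 0.05. Positions are from GENCODE and promoters from RefSeq, both of GRCm38. The fit was tested on simulated data. The members and lists were chosen with earlier results of these data known. Named were all members, the 3 genes of each pathway list with the smallest F test p, the most abundant and defining markers, the 3 nearest patterns of the 3 members with the smallest F test p, and neighbouring or overlapping genes, and part of the kinase list is not reported here. Alternatives changed the pseudocount, filter, scaling, trend, weights, block and samples.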

Additional observations from a re-analysis of the deposited data

How the results depend on the processing

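Over 21 alternatives, Cd8a was called in Rop7-III against Rop7-II in each, with log2 differences of -0.43 to -0.37. Fyn in Rop7-III against Rop7-I and Cd8a and Lck in Rop7-I against Rop7-II were each called in 7 of 21, always in the same direction. In Rop7-III against Rop7-I and Rop7-I against Rop7-II, 0 members were called without a filter, after a shift to a common median, without the trend and with only the compared clones in the fit. Across the 3 clones 1 was called without a filter, after the median shift and without the trend. After quantile normalization neither Cd8a nor Lck was called in Rop7-I against Rop7-II (limma adjusted p = 0.0174 and 0.0388), and the 1 member called was Ptprc (0.00422). At an adjusted p under 0.05 the counts were 2, 2, 6 and, across the 3 clones, 5, beside 25.1%, 13.1%, 17.9% and 30% of all tested genes, and with a 2-fold minimum 0 in each comparison. With 1 sample left out the counts were 1 in Rop7-III against Rop7-II, 0 to 1 in Rop7-III against Rop7-I, 0 to 3 in Rop7-I against Rop7-II and 1 to 3 across the 3 clones, and fewer samples enter these fits. Of the 21 alternatives, 2 were chosen after seeing the data and are counted in these tallies. With B-cell marker level as a covariate, 2 members were called in Rop7-III against Rop7-II and 1 across the 3 clones. In Rop7-III against Rop7-I the count stayed at 1, but Fyn was no longer called (log2 difference 0.204, limma adjusted p = 0.0241) and Cd8a was (0.00797). The log2 difference of Cd3e in Rop7-III against Rop7-I turned to -0.0348. With samples scaled to the CD3 chains, Cd8a stayed called in both of its comparisons and the calls of Fyn and Lck were lost (limma adjusted p = 0.0152 and 0.011). The log2 differences of Fyn and Lck were then 0.206 and -0.178, beside 0.208 and -0.187 in the main fit. Differences near 0 also changed sign in Rop7-III against Rop7-I, for Cd8b1 to 0.00668 after the median shift, 0.0284 after quantile normalization and 0.00817 without Rop7-III replicate 2, which also turned Cd3d to 0.00786 and Cd3g to -0.00752. Quantile normalization turned Zap70 in Rop7-III against Rop7-II to 0.00131 and Cd247 in Rop7-I against Rop7-II to 0.024, and leaving out Rop7-II replicate 3 turned them to 0.0263 and 0.00919. With 1 sample left out these differences ranged from -0.0282 to 0.00817 for Cd8b1, -0.0477 to 0.00786 for Cd3d, -0.00752 to 0.0462 for Cd3g, -0.0709 to 0.0263 for Zap70 and -0.0261 to 0.00919 for Cd247, and none was called. The cause of the other changes was not tested. With the replicate number as a block, 1, 0 and 0 members were called in the comparisons and 1 across the 3 clones. Neither the labels nor the study's methods pair the samples by number, and whether same-numbered samples were handled together is unknown. Same-numbered samples of different clones had correlations of -0.388 to 0.106 in their deviations over genes, over 0.1 in 1 of 9 pairs. The lowest was between Rop7-I and Rop7-II replicates 1. Of 18 combinations of a sample and another clone, 6 correlated best with their own number. Permuting within replicate numbers in place of all arrangements gives a smallest p of 0.0278 from 36 arrangements, and the adjusted p was 0.0694 for Cd8a to Cd8b1 and for Lck to Ptprc, 0.104 for Lck to Fyn and 0.0926 for Cd3d to Cd3g. With 1 sample left out, Cd3d to Cd3g ranged from 0.0357 to 0.0893 and Lck to Fyn from 0.0119 to 0.0893. A depth not known per sample, 3 samples a clone and 1 line a clone limit these results, and clone and mouse line cannot be told apart.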
